A study of Mus musculus with 8 samples.

Results

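The brighter microRNA precursor genes are 138 of the 511 transcript clusters on the array that the platform annotation gives a single symbol beginning with Mir and a digit or with Mirlet7. A transcript cluster is the array's unit of measurement, a set of probes summarised to 1 value per array. A cluster was a member where its mean over all 8 arrays lay above 4.34 on the log2 scale, the median of the row means of all 41345 transcript clusters. The other 373 microRNA clusters lay below it and are called dimmer here. The members stand for 136 genes, because Mir191 and Mirlet7e have 2 member clusters each. Members were thus chosen by measured brightness averaged over both groups, not by the difference between the groups, and their levels are given as a description. Just above it were Mir191 (4.40 in its dimmer cluster), Mir694 (4.40) and Mir497 (4.40), and just below it Mir128-2 (4.33), Mir215 (4.33) and Mir34b (4.32). Brightness on a short probe set is not proof of expression, and no detection call was used. In 133 members the mean lay above the limit in both groups. Mir31, Mir181b-2, Mir542 and Mir694 were members only through their Zfp125 mean and Mir3092 only through its EV mean, so these 5 had to differ between the groups in that direction.

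The study measured AML12 cells, an immortalised mouse hepatocyte line, on Affymetrix MoGene 2.0 ST arrays. One group of 4 arrays came from cells stably expressing Zfp125, a zinc finger protein gene, and the other group of 4 from cells carrying the empty vector (EV). Cells of both groups were selected with G418 and held in control medium. Total RNA was purified on RNeasy columns and labelled as cDNA with the WT kits. Nothing in the labels tells whether arrays of 1 group stem from separate cultures. The p-values below therefore cover just the scatter among these arrays, and that scatter may be technical. No cluster in the tables used here is named Zfp125 alone, and the expressed gene is not analysed here. All 8 measured hepatocyte markers of a list of 9 were above the limit, and their mean level was 9.72 to 9.85 on the EV arrays and 9.54 to 9.65 on the Zfp125 arrays. The other lists reached mean levels of 6.11 to 6.31 on an array for cholangiocytes, 4.65 to 4.82 for stellate cells or fibroblasts, 4.19 to 4.45 for endothelium, 4.10 to 4.33 for macrophages and 3.32 to 3.82 for lymphocytes, and no marker of any list passed the test.

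MicroRNA genes are transcribed as long primary transcripts, often from the introns of other genes. Drosha with Dgcr8 cuts out a hairpin in the nucleus, Xpo5 exports it, and Dicer1 trims it to a short duplex. One strand is loaded into an Argonaute protein and pairs with messenger RNAs mainly through its seed, the bases near its 5′ end, which leads to repression of the target. Several microRNA genes often lie side by side and are cut from 1 primary transcript. In hepatocytes the most abundant mature microRNA is miR-122, which acts on lipid metabolism, and miR-192 and miR-194 are typical of liver, gut and kidney epithelium. A whole-transcript array reads precursor sequence at these loci. Whether a value reflects the primary transcript, the hairpin or the mature form was not tested, and RNeasy columns in their standard use recover very short RNA poorly.

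The sequences that the results turn on are given here so that members of 1 seed family can be compared. Of the 138 members, 125 have an entry in the RefSeq microRNA table of build GRCm38.p6, from which sequences and positions were taken. The array files name no build. Letters run 5′ to 3′ and the capitals are the seed, bases 2 to 8. The first set holds the arm named 5p, or the only annotated arm, of 5 members described singly below.
miR-31-5p of Mir31, chr4:88910614-88910635, minus strand: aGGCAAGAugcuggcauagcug
miR-3473d of Mir3473d, chr8:111016498-111016521, minus strand: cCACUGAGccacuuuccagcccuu
miR-680 of Mir680-2, chrX:144297790-144297810, plus strand: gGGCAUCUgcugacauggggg
miR-192-5p of Mir192, chr19:6264857-6264877, plus strand: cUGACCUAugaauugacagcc
miR-194-5p of Mir194-2, chr19:6264658-6264679, plus strand: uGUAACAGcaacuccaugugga
The hairpin of Mir5099, a member of strong signal, is shown whole and without capitals, at chr12:36816205-36816278 on the plus strand.
Mir5099 hairpin: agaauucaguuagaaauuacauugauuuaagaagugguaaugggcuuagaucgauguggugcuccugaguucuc
The next set is the miR-15 and 16 family, whose 4 member genes share the seed AGCAGCA.
miR-15a-5p of Mir15a, chr14:61632075-61632096, minus strand: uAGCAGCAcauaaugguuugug
miR-16-5p of Mir16-1, chr14:61631936-61631957, minus strand: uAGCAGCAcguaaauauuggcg
miR-195a-5p of Mir195a, chr11:70235062-70235082, plus strand: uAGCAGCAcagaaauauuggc
miR-497a-5p of Mir497, chr11:70234730-70234751, plus strand: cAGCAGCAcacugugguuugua
The miR-181 family has 4 member genes at a pair of loci, all with the seed ACAUUCA.
miR-181a-5p of Mir181a-2, chr2:38852741-38852763, plus strand: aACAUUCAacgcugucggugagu
miR-181b-5p of Mir181b-2, chr2:38853845-38853868, plus strand: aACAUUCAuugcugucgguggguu
miR-181c-5p of Mir181c, chr8:84178924-84178945, minus strand: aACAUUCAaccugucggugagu
miR-181d-5p of Mir181d, chr8:84178759-84178781, minus strand: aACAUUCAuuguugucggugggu
The let-7 members share the seed GAGGUAG.
let-7a-5p of Mirlet7a-1, chr13:48538239-48538260, minus strand: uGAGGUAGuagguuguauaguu
let-7e-5p of Mirlet7e, chr17:17830366-17830387, plus strand: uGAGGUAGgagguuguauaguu
let-7i-5p of Mirlet7i, chr10:122985698-122985719, minus strand: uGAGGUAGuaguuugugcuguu

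None of the 138 members passed the test in the comparison of Zfp125 with EV, in which limma was fitted to all 41345 transcript clusters with Benjamini-Hochberg adjustment over the whole table. Called means an adjusted p under 0.05. Of all clusters 61 were called, which is 0.148%, and the smallest adjusted p of a member from limma was 0.12, for Mir5099. At an unadjusted p under 0.05 there were 16 members, or 11.6%, of which 11 were higher in Zfp125 and 5 lower. Among the 11 were Mir31, Mir181b-2 and Mir542, which passed the limit only through Zfp125. Over the 133 members above the limit in both groups it was 13, or 9.77%, with 8 higher and 5 lower, against 11.7% of the clusters that met the same condition. The same share was 9.43% of all clusters and 12.1% of the 20672 clusters above the brightness limit, so the members' share was near the background of clusters above the same limit. Fitting 1 cluster per gene symbol, that of strongest signal, called 240 of 22180 genes (1.08%), among them the members Mir31, Mir5099 and Mir3473d. Fitting only the clusters above the limit called 232 of 20672 (1.12%), with Mir5099 the 1 member among them.

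The members' differences were small beside their errors. Differences are Zfp125 minus EV on the log2 scale throughout. The median over the 138 members was 0.04, with 85 above 0 and 53 below, against a median of -0.00095 over all clusters, 0.01 over clusters above the limit and -0.03 over the 373 dimmer microRNA clusters. The 138 include the 5 members whose direction was set by the rule. Over the 133 members above the limit in both groups the median was 0.035, with 81 above 0 and 52 below. For clusters that met the same condition the median was 0.011. Over all 138 the median size was 0.14, 103 members lay within 0.2 of 0, and 3 exceeded 0.5 in either direction. The median standard error (SE) was 0.13, and the 95% interval reached a median of 0.29 to either side. These intervals are not adjusted for the number of clusters tested. With that adjustment the test recovered 18% of changes of 0.5 in simulated data with 4 arrays a group. Differences well above 0.29 could thus be missed. The median standard deviation (SD) within a group was 0.19 for members and 0.15 for all clusters above the limit. Brightness was not matched in this comparison, as the median level was 5.419 for members and 5.635 for those clusters.

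**Figure D1:**
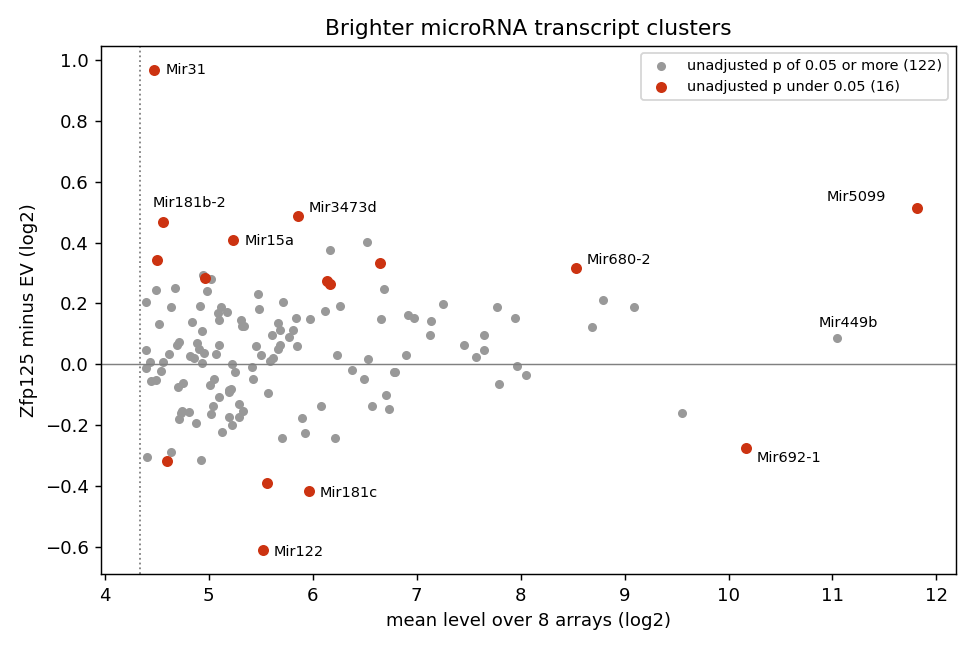
Each of the 138 members is a point, with its mean level over the 8 arrays on the x axis (log2) and the difference Zfp125 minus EV on the y axis (log2). The dotted line is the brightness limit of 4.34. The 16 members at an unadjusted p under 0.05 are red, and Mir31 (0.97), Mir5099 (0.51) and Mir122 (-0.61) lie farthest from 0.

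In 9 members, or 6.52%, the 4 Zfp125 arrays and the 4 EV arrays did not overlap, 6 with Zfp125 higher and 3 with Zfp125 lower. Among clusters above the limit this held for 9.04%, with 4.86% higher and 4.18% lower, and among all clusters for 3.2% higher and 3.03% lower. The members' share was not above that of all clusters above the limit. The 6 include Mir31, a member only through its Zfp125 mean. Over the 133 members above the limit in both groups there were 5 higher and 3 lower. Of the 20058 clusters that met the same condition, 963 were higher and 831 lower.

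Mir31, an epithelial microRNA gene (transcript cluster 17427131), was a member only through the Zfp125 arrays, so a positive difference was set by the rule and its size and p-values are a description. Its level was 4.02, 3.49, 3.78 and 4.69 on EV arrays 1 to 4 and 4.72, 5.08, 5.0 and 5.04 on Zfp125 arrays 1 to 4. The groups did not overlap, but EV replicate 4 lay just under the lowest Zfp125 array, and 3 of 4 EV values and the EV mean were below the brightness limit. The means were 3.99 ± 0.51 and 4.96 ± 0.16 (SD, n = 4 each). The difference was 0.97 ± 0.23 (SE), with a 95% interval of 0.46 to 1.48 and an adjusted p of 0.182 from limma. Over 1 cluster per gene symbol the adjusted p from limma was 0.0339, and without EV replicate 4 the difference was 1.20 with an adjusted p of 0.0489. Over the 16 alternatives the adjusted p ranged from 0.0339 to 0.39.

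Mir5099 (transcript cluster 17275060) gave a strong signal on every array. It read 11.71, 11.34, 11.54 and 11.65 on the EV arrays and 12.00, 11.99, 12.16 and 12.13 on the Zfp125 arrays. Every Zfp125 array lay above every EV array. The difference was 0.51 ± 0.10 (SE), with a 95% interval of 0.28 to 0.74 and an adjusted p of 0.12 from limma. The adjusted p from limma was 0.0281 over 1 cluster per gene symbol, 0.0433 over clusters above the limit and 0.0315 with a trended robust prior, and it ranged from 0.0281 to 0.30 over the alternatives.

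Mir3473d read 5.74, 5.41, 5.66 and 5.64 on the EV arrays and 6.33, 6.03, 5.94 and 6.11 on the Zfp125 arrays, again without overlap. Its difference was 0.49 ± 0.11 (SE), and the adjusted p from limma was 0.173, against 0.0492 over 1 cluster per gene symbol. It shares its seed CACUGAG with Mir674, whose difference was 0.06 ± 0.09 (SE).

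Mir15a, which with Mir16-1 represses Bcl2 and cell cycle genes, read 5.01, 4.91, 5.11 and 5.10 on the EV arrays and 5.48, 5.58, 5.28 and 5.42 on the Zfp125 arrays. The groups did not overlap. The difference was 0.41 ± 0.10 (SE), with an adjusted p of 0.177 from limma and of 0.0657 over 1 cluster per gene symbol. Mir680-2 read 8.29, 8.39, 8.38 and 8.42 on the EV arrays and 8.74, 8.65, 8.77 and 8.59 on the Zfp125 arrays. Its difference was 0.32 ± 0.08 (SE), with an adjusted p of 0.224 from limma. Mir672, the last of the 6 with Zfp125 higher, had means of 5.03 ± 0.06 and 5.21 ± 0.10 (SD, n = 4 each).

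The 3 members whose Zfp125 arrays all lay lower were Mir122, Mir692-1 and Mir299a. Mir122 encodes the chief hepatocyte microRNA. Its cluster read 5.95, 5.72, 5.56 and 6.07 on the EV arrays and 5.34, 5.50, 4.66 and 5.36 on the Zfp125 arrays. The nearest values of the groups were close, and Zfp125 replicate 3 was the lowest array by a wide margin. The difference was -0.61 ± 0.19 (SE), with a 95% interval of -1.04 to -0.18 and an adjusted p of 0.335 from limma. Without Zfp125 replicate 3 it was -0.42, and the adjusted p ranged from 0.136 to 0.523 over the alternatives.

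Mir692-1 read 10.40, 10.28, 10.23 and 10.31 on the EV arrays and 10.03, 9.93, 10.05 and 10.11 on the Zfp125 arrays. Its difference was small but its arrays were tight, at -0.27 ± 0.08 (SE) with an adjusted p of 0.31 from limma. The member cluster of Mir299a, a gene of the imprinted Dlk1 to Dio3 region, had means of 4.98 ± 0.07 in EV and 4.79 ± 0.13 in Zfp125 (SD, n = 4 each). A second cluster of Mir299a, below the limit, had means of 2.41 ± 0.21 and 2.33 ± 0.15 (SD, n = 4 each) and a difference of -0.08 ± 0.12 (SE). Positions and strands here are those of the gene, and which strand each cluster reads was not checked. The brighter reading may therefore not be that of the Mir299a precursor.

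**Figure D2:**
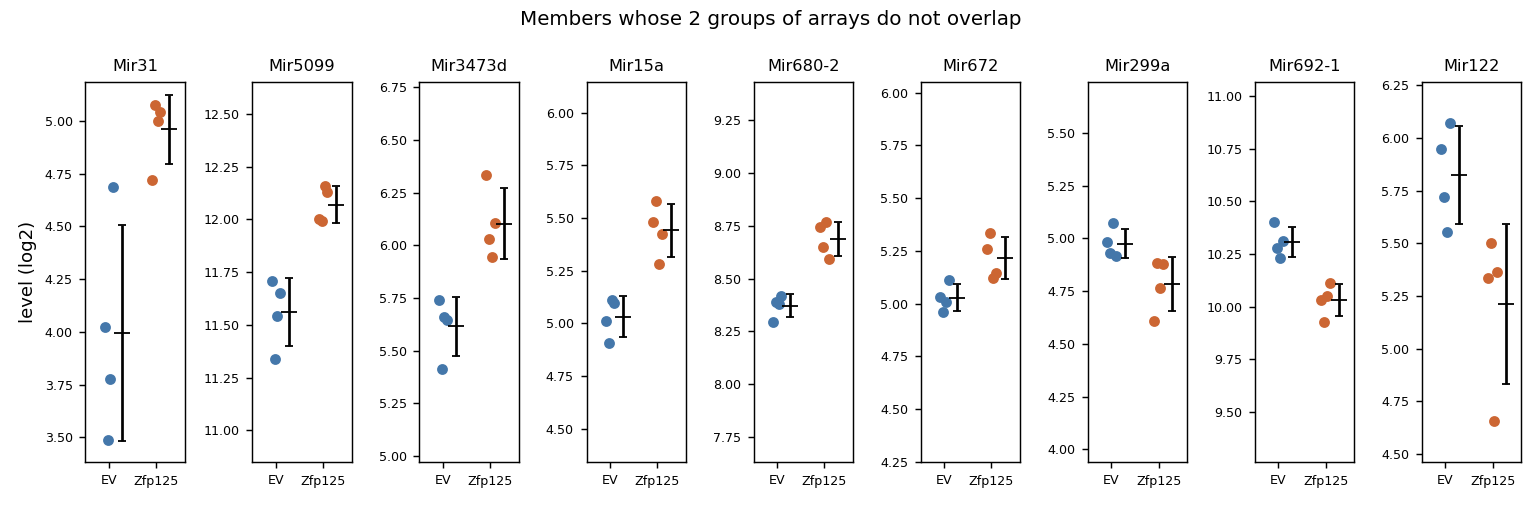
Level on each array (log2, y axis) of the 9 members whose EV and Zfp125 arrays did not overlap, with the mean and SD of each group of 4 beside the points. All panels span the same number of log2 units, so the spread of Mir31 on the EV arrays (SD 0.51) can be set against that of Mir692-1 (SD 0.07).

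The remaining members at an unadjusted p under 0.05 overlapped between the groups. On the higher side these were Mir181b-2 (0.47 ± 0.15), Mir542 (0.34 ± 0.14), Mir761 (0.33 ± 0.11), Mir455 (0.28 ± 0.12), Mir1191 (0.28 ± 0.11) and Mir3091 (0.26 ± 0.10), each difference with its SE. On the lower side they were Mir181c (-0.42 ± 0.15), Mir344d-2 (-0.39 ± 0.16) and Mir1895 (-0.32 ± 0.12). Their adjusted p-values from limma were 0.347 or more. Mir3081 (-0.32 ± 0.18), Mir3092 (-0.30 ± 0.23) and Mir450-2 (-0.29 ± 0.29) were also among the 8 most negative members, each with a 95% interval that held 0. Leaving out 1 array moved them over ranges of -0.48 to -0.19, -0.44 to -0.08 and -0.47 to -0.05.

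Of the 8 members of strongest signal, 6 had higher means in Zfp125. The strength of a signal depends on the probes as well as on the RNA. One of the 8 was Mir449b, whose mature form shares the seed of miR-34 and is known from multiciliated cells. It read 11.02, 11.05, 10.98 and 10.95 on the EV arrays and 11.03, 11.07, 11.11 and 11.12 on the Zfp125 arrays, a difference of 0.09 ± 0.08 (SE) with overlap. Mir5112 differed by -0.16 ± 0.14, Mir1195 by 0.19 ± 0.10, Mir703 by 0.21 ± 0.12 and Mir467c by 0.12 ± 0.09 (SE). In all, 9 members had a mean above 8 and 41 a mean below 5.

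Members that lie side by side did not all differ in the same direction. Members on the same chromosome and strand whose starts were at most 10 kb apart formed 13 genomic clusters of at least 2 members, with 32 genes in all. In 6 of the 13 every member lay on the same side of 0, and in 7 the members fell on both sides. Mir181b-2, counted in the 6, and Mir542, counted in the 7, were members only through their Zfp125 means. Their signs were therefore set by the rule, so the counts are a description. Differences between neighbours were not tested. Joining at 3 kb or at 50 kb also gave 13, but not the same grouping. At 3 kb they held 30 genes and the largest 6, and at 50 kb 36 genes and the largest 10. The split by side was counted at 10 kb only.

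On chromosome 14, Mir15a (0.41 ± 0.10) and Mir16-1 (0.11 ± 0.14) lie within Dleu2, and both were above 0. Mir16-1 read 4.88, 4.77, 4.81 and 5.06 on the EV arrays and 4.65, 5.29, 4.99 and 5.02 on the Zfp125 arrays, with 1 Zfp125 array the lowest of all. The other pair of this seed family, Mir195a (-0.06 ± 0.10) and Mir497 (-0.01 ± 0.10) on chromosome 11, lay at 0 within error.

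The miR-181 family, known for its part in lymphocyte development, held both a member above 0 and a member below 0 at an unadjusted p under 0.05. Mir181b-2 on chromosome 2, a member only through its Zfp125 mean, read 4.17, 4.11, 4.48 and 4.55 on the EV arrays and 4.97, 4.69, 4.50 and 5.02 on the Zfp125 arrays. Of the Zfp125 arrays, replicate 3 alone lay within the EV range. Its neighbour Mir181a-2 differed by 0.18 ± 0.11 (SE). Mir181c on chromosome 8 read 6.41, 5.98, 6.30 and 5.99 on the EV arrays and 5.84, 5.48, 6.05 and 5.64 on the Zfp125 arrays. Here too 1 array, Zfp125 replicate 3, lay within the EV range. Its neighbour Mir181d differed by 0.02 ± 0.11 (SE), so the range over the 4 members of this seed was -0.42 to 0.47. The family's clusters below the limit were Mir181b-1, at 0.67 ± 0.29, and Mir181a-1, at -0.16 ± 0.12 (SE). No cluster of the family was called.

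On chromosome 19, Mir194-2 and Mir192 had the largest median difference of the 13 genomic clusters, 0.39. Mir192 read 5.95, 6.12, 5.68 and 6.16 on the EV arrays and 6.60, 6.64, 6.01 and 6.14 on the Zfp125 arrays. Mir194-2 read 6.82, 6.19, 6.39 and 5.90 on the EV arrays and 7.13, 6.06, 7.08 and 6.63 on the Zfp125 arrays. Both overlapped between the groups, at 0.38 ± 0.17 and 0.40 ± 0.26 (SE), and the unadjusted p of neither was under 0.05. Mir194-1, the copy of the same mature arm on chromosome 1, differed by 0.18 ± 0.10 (SE).

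The genomic cluster of Mir99b and Mirlet7e on chromosome 17 lies within Spaca6. Mir99b differed by 0.25 ± 0.11 (SE) and the pair of Mirlet7e clusters by 0.11 ± 0.14 and 0.04 ± 0.16 (SE). On chromosome 9, within Dalrd3, the brighter Mir191 cluster differed by 0.14 ± 0.09, the dimmer by 0.05 ± 0.15 and Mir425 by -0.17 ± 0.14 (SE). As for Mir299a, which strand each Mir191 and Mirlet7e cluster reads was not checked. A reading may therefore not be that of the precursor. On the X chromosome, Mir542 (0.34 ± 0.14) and Mir450-2 (-0.29 ± 0.29) had differences of opposite sign. Mir542 was a member only through its Zfp125 mean, so its sign was set by the rule.

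The imprinted Dlk1 to Dio3 region carries one of the largest sets of microRNA genes in the mouse genome, and these microRNA genes are expressed from the maternal chromosome. Of its 47 measured microRNA clusters, 14 were members. Of the 14, 8 were above 0 and none had an unadjusted p under 0.05, and the median was 0.03. The largest genomic cluster lies there, with 7 members and 20 dimmer microRNA clusters within 10 kb. In it Mir329 had the smallest p (0.29 ± 0.13, SE) and Mir667 differed by 0.05 ± 0.12 (SE). Mir299a (-0.19 ± 0.09) lay on the other side of 0. Of the 3 members of the next cluster, Mir453 had the smallest p, at -0.15 ± 0.12 (SE).

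The other genomic clusters held no member at an unadjusted p under 0.05. Mir540 (-0.22 ± 0.18) and Mir665 (0.19 ± 0.09), also in the Dlk1 to Dio3 region, had opposite signs. Mir665 read 6.25, 6.08, 6.08 and 6.26 on the EV arrays and 6.42, 6.24, 6.48 and 6.30 on the Zfp125 arrays, where 1 of 4 Zfp125 arrays lay within the EV range. Mir296 (0.03 ± 0.21) and Mir298 (-0.09 ± 0.10) on chromosome 2, which belong to the imprinted Gnas region, both had intervals that held 0. On chromosome 3, Mir3093 differed by 0.06 ± 0.25 and its neighbour Mir9-1, a gene of the nervous system, by 0.10 ± 0.10 (SE).

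**Figure D3:**
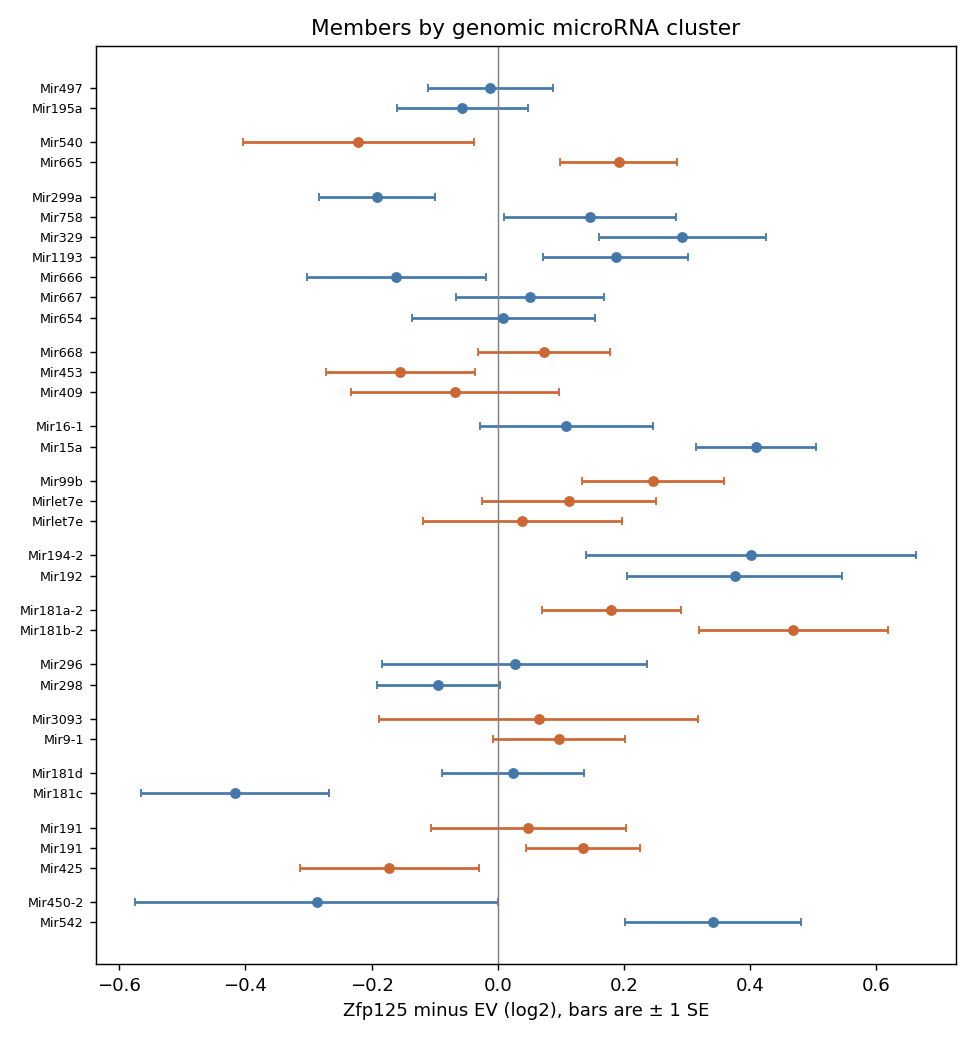
Difference Zfp125 minus EV (log2, x axis) with its SE for every member in the 13 genomic clusters of at least 2 members. Members of 1 genomic cluster are adjacent, and the colour alternates from one genomic cluster to the next. In 7 of the 13 the members lie on both sides of the line at 0. The side of Mir181b-2 and of Mir542 was set by the membership rule.

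Of all 511 microRNA clusters 27.01% were members, and the families differed from each other in that share. Of the let-7 family, which represses Lin28 and growth genes in differentiated cells, 4 of 14 measured clusters were members. Their differences were 0.06 ± 0.15 for Mirlet7a-1, -0.09 ± 0.08 for Mirlet7i and the values above for Mirlet7e (SE). Of 10 measured clusters of the miR-17 to 92 family, which favours cell cycle entry, only Mir106b was a member, at 0.28 ± 0.13 (SE). Of the miR-30 family 1 of 6 was a member, of miR-23, 27 and 24 it was 2 of 3, of miR-15 and 16 it was 4 of 6, and of miR-181 it was 4 of 6. None of the 2 miR-29, 3 miR-34 and 4 miR-200 clusters measured was a member. The Sfmbt2 intron family was taken by symbol and not by position, so some of its clusters may lie elsewhere. Of these 2 of 43 were members, Mir467c and Mir467e, the latter at 0.16 ± 0.11 (SE). Several of the 43, such as those of Mir466b-2, had identical means and SDs, so they are not all separate readings.

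Of 19 measured microRNA clusters on a list of genes studied in liver, 6 were members. They were Mir31, Mir122, Mir192, Mir194-1 and Mir194-2, described above, and Mir107, which lies in Pank1 and differed by 0.04 ± 0.20 (SE). Mir107 was scattered on the EV arrays, from 4.61 to 5.57, and tight on the Zfp125 arrays, from 4.99 to 5.21. Liver microRNA genes such as Mir148a (mean 2.11 in EV), Mir33 (2.19) and Mir802 (1.99) were below the limit. Levels of different clusters rest on different probes, so these values do not order the genes by abundance.

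For 61 members the RefSeq gene table places the whole microRNA gene inside another gene on the same strand, with 53 such host genes in all. The table gives gene spans only, so intron and exon were not told apart. The strand is that of the microRNA gene, and the strand read by each cluster was not checked. A host was measured for 54 members, with 48 hosts, of which 44 are protein coding and 4 are long non-coding RNA genes. No host was called by limma, and 9 hosts (18.8%) had an unadjusted p under 0.05. That share was 9.43% of all clusters and 12.1% of those above the limit, where 43 of the 48 hosts lay. The count of 9 was not stable. Leaving out 1 array gave 6 to 9 hosts, the replicate number as a block 5, and no variance moderation 12. No host was called under any alternative.

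Members and hosts lay on the same side of 0 in 27 of the 54 pairs and on opposite sides in the other 27. The same-side pairs include Mir3092 with Fndc3b, where the sign of Mir3092 was set by the membership rule. The Pearson correlation of the differences over the 54 pairs was 0.22 and that of the mean levels 0.15, given as a description, since pairs share hosts and all share the same arrays. Col27a1, a fibrillar collagen gene that holds Mir455, had the smallest p of the hosts. Its means were 7.0 ± 0.11 in EV and 7.46 ± 0.18 in Zfp125 (SD, n = 4 each), and its difference of 0.46 ± 0.11 (SE) had an adjusted p of 0.188 from limma. Mir455 differed by 0.28 ± 0.12 (SE).

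Other pairs parted. Ddx19b, an RNA helicase gene that holds Mir3473d, differed by -0.25 ± 0.10 where Mir3473d differed by 0.49 ± 0.11 (SE). Pank1, a pantothenate kinase gene that holds Mir107, differed by -0.30 ± 0.10 (SE). Dleu2 was dim, with a mean of 3.77 ± 0.13 in EV and 3.96 ± 0.26 in Zfp125 (SD, n = 4 each), and differed by 0.19 ± 0.14 (SE). Spaca6 differed by 0.22 ± 0.08, Dalrd3 by 0.07 ± 0.07 and Mcm7, the replication helicase subunit gene that holds Mir106b, by 0.05 ± 0.08 (SE). Fndc3b, with Mir3092, differed by -0.31 ± 0.10 and Nrd1, with Mir761, by -0.06 ± 0.08 (SE). Mir3092 also lay below 0, but it was a member only through its EV mean, so that sign was set by the rule.

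**Figure D4:**
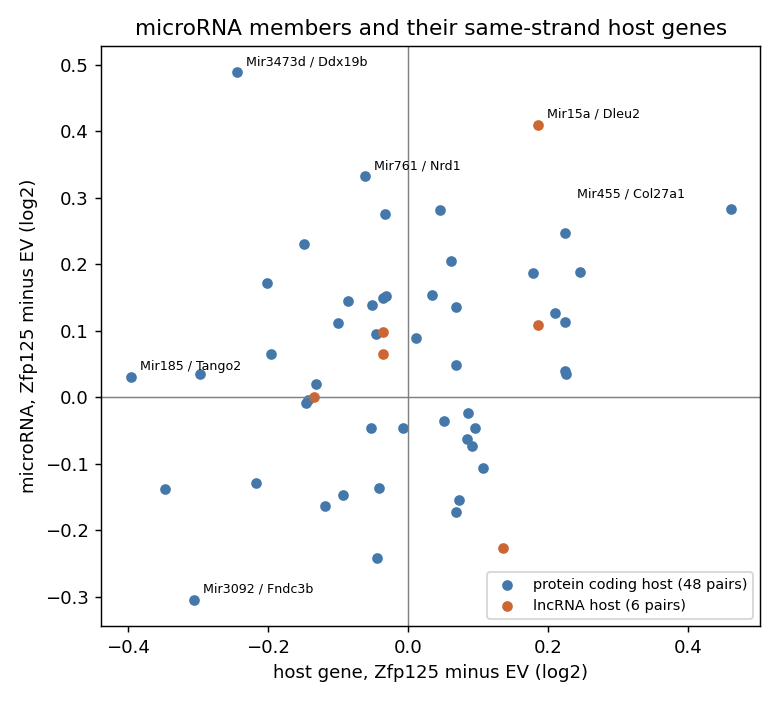
Difference Zfp125 minus EV (log2) of each host gene on the x axis and of the microRNA member inside it on the y axis, for 54 pairs. Blue points are protein coding hosts and orange points long non-coding RNA hosts. The points fill all 4 quadrants, with 27 pairs in the quadrants of equal sign.

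Genes that make, load, use and destroy microRNAs were given by a list of 36, of which 32 were measured. None was called by limma in the fit of all clusters, and 8 had an unadjusted p under 0.05, 7 higher in Zfp125 and 1 lower. That is 25% of the list, against 9.43% of all clusters and 12.1% of those above the limit. The count of 8 was not stable. Leaving out 1 array gave from 3, without Zfp125 replicate 1, to 10, without EV replicate 1. With the replicate number as a block it was 5. Over all clusters the omissions gave 3412 to 4283. The median difference of the list was 0.13, with 23 of 32 (71.9%) above 0, against 49.7% of all clusters and 53.4% of those above the limit. Of the nuclear steps, Drosha differed by 0.14 ± 0.10 and its helicase cofactor Ddx5 by 0.39 ± 0.09 (SE). Ddx5 had means of 10.18 ± 0.13 in EV and 10.57 ± 0.08 in Zfp125 (SD, n = 4 each). The cap-binding gene Ncbp1 differed by 0.28 ± 0.08, and Smad3, whose product binds Drosha complexes, by 0.28 ± 0.11 (SE).

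Of export and dicing, Xpo5 differed by -0.02 ± 0.11, Dicer1 by 0.12 ± 0.15 and the Dicer partner Tarbp2 by -0.30 ± 0.12 (SE). Of the effectors, Ago2 differed by -0.08 ± 0.08 (SE). The editing enzyme gene Adarb1 differed by 0.27 ± 0.11 (SE). Xrn1, the 5′ to 3′ exonuclease gene of RNA decay, had the smallest p of the list. Its means were 5.37 ± 0.14 in EV and 5.82 ± 0.06 in Zfp125 (SD, n = 4 each), a difference of 0.45 ± 0.09 (SE) with an adjusted p of 0.13 from limma. Over 1 cluster per gene symbol it was called higher, with an adjusted p of 0.0391, and over clusters above the limit with 0.0474, in a range of 0.0391 to 0.324 over the alternatives.

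Another class of small RNA gene stood apart between the groups. The median level of 81 small nucleolar and Cajal body RNA clusters was 6.21 to 6.46 on the EV arrays and 6.68 to 6.80 on the Zfp125 arrays, with no overlap and a median difference of 0.28. The median over the 138 members was 5.42 to 5.45 on the EV arrays and 5.32 to 5.52 on the Zfp125 arrays, which overlapped. The dimmer microRNA clusters ran from 2.61 to 2.68 and from 2.57 to 2.65, and all clusters from 4.32 to 4.37 over the 8 arrays. The part of that separation in single members such as Mir31 was not tested.

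Signal, the measure that chose the members, went with base composition over the microRNA clusters. The members themselves spanned a GC content of 33.3 to 85.7%. Over the 123 members with a mature sequence in the table, the median GC content of the mature sequences was 53.5%, against 46.3% over 305 dimmer microRNA clusters. When the 428 clusters were split by GC content into 4 bins of near equal size, members made up 8.41% of the lowest bin (GC up to 42.0%), 15.0% of the second, 37.0% of the third and 54.7% of the highest (GC from 54.8%). The Pearson correlation of GC content with level was 0.48 over the 428 clusters and 0.20 among the members. These clusters share the arrays and, within families, their sequence, so the values are descriptions. The difference between the groups had a correlation of -0.22 with mature GC content over the 123 members. Base composition also bears on how probes hybridise, and its part in the levels was not tested.

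**Figure D5:**
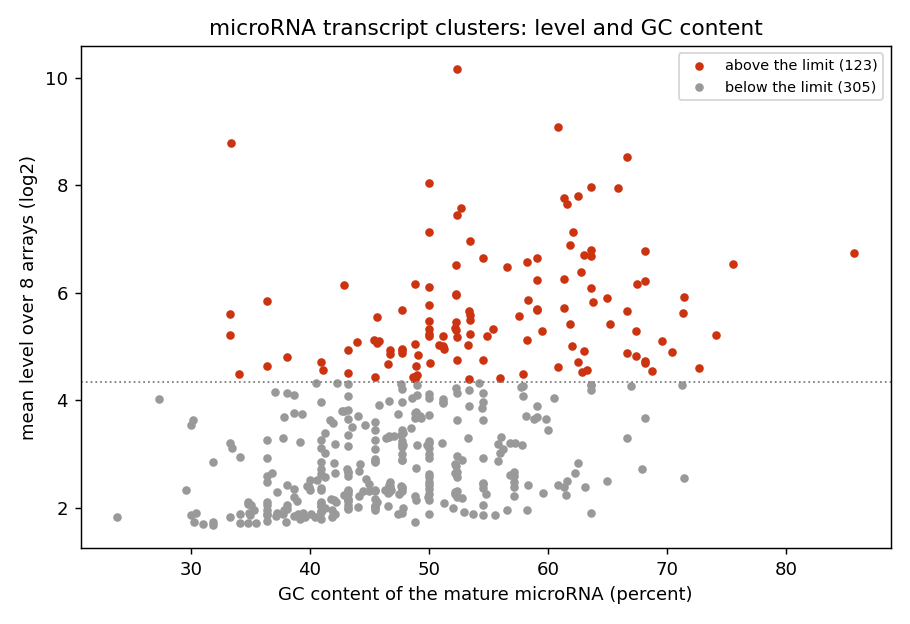
Mean GC content of the mature microRNA sequences of a cluster (percent, x axis) and mean level over 8 arrays (log2, y axis) for 428 microRNA transcript clusters. Red points are the 123 members above the dotted limit of 4.34 and grey points the 305 below it. Members lie further to the right, with a median GC content of 53.5% against 46.3%.

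Shared sequence also limits what single members show. For 17 members a mature sequence is identical to that of another gene, as in the pair Mir194-1 and Mir194-2 or the pair Mir9-1 and Mir9-3. Whether probes of such clusters also read the other copy was not tested. In Mir219a-1 and Mir219a-2, which share the seed GAUUGUC, the differences were -0.14 ± 0.13 and -0.16 ± 0.14 (SE), and in Mir680-2 and Mir680-3, with the seed GGCAUCU, they were 0.32 ± 0.08 and 0.07 ± 0.11 (SE).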

How the data were processed

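The deposited values were log2 expression values, 1 per transcript cluster and array, read as log2 from their range. They were made by the authors with Affymetrix Expression Console and Transcriptome Analysis Console, per the submitters' processing notes; how arrays were normalized is not given in the sources used here. Here no value was normalized again in the principal analysis. Symbols came from the platform annotation, and clusters with several symbols were left out. limma 3.58.1 (R 4.3.3; lmFit and eBayes, 2-sided) was fitted to all 41345 clusters on 4 Zfp125 and 4 EV arrays, with Benjamini-Hochberg adjustment over all of them. The number of arrays limits the precision. On simulated data with 200 changed clusters, the test recovered 18% of changes of 0.5, 74% of changes of 1 and 98% of changes of 2 (log2), with 11 false calls among 143. Intervals are 95% intervals of limma's moderated test.

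The members and lists were chosen with earlier results of these data known. Named genes were the 8 largest differences in each direction, the 8 members of strongest signal, the strongest and smallest-p members of genomic clusters of 3 or more, measured hosts of these, the 3 clusters on either side of the limit, the 5 biogenesis genes of smallest p, and the liver, let-7 and miR-17 to 92 members. Other genes named were chosen after their values were seen. The strand of 13 members was not in the tables, and these were joined to neighbours by distance alone. GC content was taken from mature sequences because only 78.6% of dimmer clusters had a hairpin sequence. Alternatives were quantile normalization, median centring, a brightness filter, other variance priors, array weights, 1 cluster per symbol, the replicate number as a block, other brightness limits and joining distances, and omission of each array in turn. Figures used matplotlib 3.10.9 and tables made with pandas 2.3.3 in Python 3.11.15.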

Additional observations from a re-analysis of the deposited data

Results flagged for a closer look

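In 4 of 96 groups of 4 arrays, 1 array stood far from the other 3 by Dixon's test, where chance gives about 5%. Mir329 read 5.27 on Zfp125 replicate 3, against 5.0 to 5.04 on the other Zfp125 arrays. Mir181a-2 read 5.18 on EV replicate 4, against 5.46 to 5.48 on the other EV arrays. Mir703, a bright member, read 9.04 on EV replicate 1, against 8.54 to 8.59. The dimmer Mir191 cluster read 3.91 on Zfp125 replicate 3, against 4.53 to 4.63.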

How the results depend on the processing

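Called counts depended on how many clusters were tested and on the variance prior. Of all clusters 61 were called, against 232 over clusters above the brightness limit, 196 with a trended robust prior, 240 over 1 cluster per gene symbol, 4 without variance moderation and 16 to 61 on leaving out 1 array (16 without Zfp125 replicate 1). Of the members 0 were called, against 1 over clusters above the limit and 1 with the trended robust prior (Mir5099 in both), 3 over 1 cluster per gene symbol, and 0 to 1 on leaving out 1 array, where the 1 was Mir31 without EV replicate 4. Of the biogenesis genes 0 were called, against 1, Xrn1, over clusters above the limit and over 1 cluster per gene symbol. Quantile normalization, median centring and array weights changed none of the calls of members. Other brightness limits took clusters from the same fit, where none of the 511 microRNA clusters was called, so they could not change a call. Joining distances do not enter the fit. With the replicate number as a block 0 of all clusters and 0 members were called, with 3530 clusters and 18 members at an unadjusted p under 0.05. Deviations of arrays with the same number correlated at -0.04 to 0.03, so no effect shared by same-numbered arrays was visible. Whether such arrays were prepared together cannot be told from this.

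The median difference over members was 0.03 to 0.07 in the alternatives that kept the members' brightness limit, with 74 to 90 members above 0. It was 0.09 over the 58 above the 75th percentile and -0.01 over all 511 microRNA clusters, with 40 and 242 above 0. Of the 133 members above the limit in both groups, a condition added after seeing the data, 0 were called. This had to follow, since no member was called in the same fit. Of 64 named genes, 55 kept their sign in every alternative. The other 9, all near 0 in the full data, changed sign only on leaving out 1 array. Over those omissions the difference ran from -0.070 to 0.043 for Mir497, -0.10 to 0.0077 for Mir195a, -0.014 to 0.13 for Mir667, -0.032 to 0.16 for Mirlet7a-1, -0.074 to 0.15 for the dimmer Mirlet7e cluster, -0.11 to 0.21 for Mir107, -0.060 to 0.089 for Mir181d, -0.020 to 0.22 for the dimmer Mir191 cluster and -0.12 to 0.080 for the host gene BC024978.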

Other observations

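Among the clusters left out because a microRNA shares them with another gene, 136 in number, 1 was called by limma. Of all 41345 clusters 61 were called, or 0.148%. The called cluster of the 136 pairs H19, an imprinted long non-coding RNA gene of fetal liver, with Mir675, which is cut from it. It read 5.41, 5.46, 5.44 and 5.75 on the EV arrays and 4.78, 4.45, 4.21 and 4.75 on the Zfp125 arrays. Every Zfp125 array lay below every EV array, and the difference was -0.97 ± 0.14 (SE), with an adjusted p of 0.0479 from limma over all clusters. That value lay just under the limit of 0.05. With the replicate number as a block no cluster of the array was called, this one included. Its values under the other alternatives are not given here. The array does not separate the host transcript from the microRNA here. The cluster of Vmp1 and Mir21a, which holds the gene of a microRNA abundant in many cell lines, had means of 7.10 ± 0.15 in EV and 7.11 ± 0.06 in Zfp125 (SD, n = 4 each). The cluster of Mir22hg, Mir22 and Tlcd2 had means of 6.47 ± 0.18 and 6.50 ± 0.05 (SD, n = 4 each). Of the 136 clusters 11 had an unadjusted p under 0.05, which is 8.09%, against 9.43% of all clusters. Many of the 136, such as those of the Mir669a and Mir467a copies, repeat the same values on all 8 arrays. The 8.09% is therefore a share of clusters and not of separate readings.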
